A study of Mus musculus with 10 samples.

Results

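The subject is the paired isoforms of cytochrome oxidase subunits: genes that encode alternative versions of the same subunit of respiratory complex IV. The 10 genes are Cox4i1 and Cox4i2, Cox6a1 and Cox6a2, Cox6b1 and Cox6b2, Cox7a1, Cox7a2 and Cox7a2l, and Ndufa4l2. They were picked by symbol from a table of raw read counts that holds 26401 Ensembl genes, and all 10 were found there. Ndufa4, the common partner of Ndufa4l2, was set beside it. The libraries came from 10 populations of immortalized embryonic fibroblasts of the mouse (MEFs), 5 with high and 5 with low heteroplasmy, which is the share of mutant copies among the mitochondrial genomes of a cell. Both groups carried the m.5024C>T mutation, which lies in mt-Ta, the mitochondrial tRNA gene for alanine. The labels give C57Bl/6N as the background, under a field meant for treatment, and state that there was no treatment. Every population was grown in high-glucose medium with 10% serum and 50 µg/ml uridine, a supplement that lets cells with poor respiration keep dividing. Each has its own clone number. Neither the mutant share of each clone nor the way clones were derived is stated in the material used, so their independence is not known. The p-values set the difference between groups against the spread between these clones.

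Cytochrome oxidase passes electrons from cytochrome c to oxygen and pumps protons across the inner mitochondrial membrane. Its catalytic core is encoded by mitochondrial DNA, and the surrounding subunits are encoded in the nucleus. Several of these have a version made in nearly all tissues and a version made in few. Cox4i2 is known from lung and from cells short of oxygen, Cox6a2 and Cox7a1 from heart and skeletal muscle, and Cox6b2 from testis. Cox7a2l, also called SCAF1, joins complex III to complex IV in supercomplexes, and C57BL/6 strains are known to carry a shorter allele of it. Ndufa4 is a complex IV subunit that was first assigned to complex I, and its relative Ndufa4l2 is induced by hypoxia-inducible factor.

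The isoforms are separate genes with related coding sequences. In the annotated principal transcripts, Cox4i2 and Cox4i1 were 69.6% identical over the aligned coding bases, Cox6a2 and Cox6a1 66.6%, Cox6b2 and Cox6b1 64.2%, Cox7a1 and Cox7a2 65.4%, Cox7a2l and Cox7a2 68.8%, and Ndufa4l2 and Ndufa4 68.2%. No stretch of 50 bases, the length of one read, was shared between any pair of the 10 genes, so reads of partners could be told apart. The RefSeq promoters (GRCm38.p6, the 250 bases before the annotated start) of a common and a rarer form are shown for the 6b and 7a pairs. Capitals mark CpG dinucleotides, the sites of DNA methylation, which differ in number between the partners.
Cox6b1 (common; chr7:30626115-30626364, minus strand): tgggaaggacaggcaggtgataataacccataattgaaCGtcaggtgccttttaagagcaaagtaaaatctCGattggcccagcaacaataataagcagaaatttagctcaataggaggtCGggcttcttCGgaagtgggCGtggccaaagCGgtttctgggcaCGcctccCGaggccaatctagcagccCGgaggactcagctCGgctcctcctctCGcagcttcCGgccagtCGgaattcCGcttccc
Cox6b2 (testis form; chr7:4753095-4753344, minus strand): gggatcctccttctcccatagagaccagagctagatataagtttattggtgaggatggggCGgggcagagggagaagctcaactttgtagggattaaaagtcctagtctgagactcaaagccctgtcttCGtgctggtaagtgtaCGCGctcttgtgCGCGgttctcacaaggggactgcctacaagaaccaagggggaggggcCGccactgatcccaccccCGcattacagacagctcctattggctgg
Cox7a2 (common; chr9:79759854-79760103, minus strand): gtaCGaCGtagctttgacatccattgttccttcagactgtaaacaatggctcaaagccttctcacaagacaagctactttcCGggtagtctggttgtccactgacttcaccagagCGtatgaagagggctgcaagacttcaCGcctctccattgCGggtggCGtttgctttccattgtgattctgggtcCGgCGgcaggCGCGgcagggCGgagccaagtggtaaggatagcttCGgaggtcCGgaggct
Cox7a1 (muscle form; chr7:30183921-30184170, plus strand): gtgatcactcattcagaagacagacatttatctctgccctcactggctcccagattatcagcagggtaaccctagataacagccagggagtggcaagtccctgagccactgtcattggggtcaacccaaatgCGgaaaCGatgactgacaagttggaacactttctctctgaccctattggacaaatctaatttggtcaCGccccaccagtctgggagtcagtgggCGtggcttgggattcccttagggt

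The promoter table held 6 of the 10 genes, and Cox4i1, Cox4i2, Cox6a2 and Ndufa4l2 were not among them. Cox6b1 and Cox7a2 had 14 CpG each, against 8 for Cox6b2 and 4 for Cox7a1. Cox6a1 had 26 and Cox7a2l 13, and the median of 32851 promoters was 6. Short motifs were searched on both strands. The hypoxia response core ACGTG, held by 16.6% of all promoters of this length, was in none of the 6 windows. The core of RBPJ, GTGGGAA (5.42% of promoters), was in none either. The ETS core CCGGAAG, bound by GABP (6.91% of promoters), lay 16 bases before the start of Cox6a1 and 28 bases before that of Cox6b1. The core GCATGCG of NRF1 (3.02% of promoters) lay in the Cox6a1 window at 160 and 161 bases before the start, where the matches to the opposite strands overlap. A match describes letters in a window, and binding was not measured.

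Libraries held 17318372 to 28208576 counts, and 12964 genes passed the expression filter. Counts were compared with edgeR's quasi-likelihood test, adjusted by Benjamini-Hochberg over these genes. A gene was called at an adjusted p under 0.05, and log2 fold changes are high over low heteroplasmy. Of the tested genes, 4.86% were called, with 258 higher and 372 lower in high-heteroplasmy clones. The fibroblast markers Vim, Col1a1 and Fn1 were abundant in every library, while Dcn, Thy1 and Postn were low or at 0 in many. Of the epithelial markers, Krt18 rose, and Krt19 (log2 fold change -1.39, edgeR adjusted p = 0.0509), Krt8 (-1.36) and Cdh1 (-2.72) were lower in high clones without being called. Epcam had at most 0.406 CPM in high and 2.11 CPM in low clones and was not tested. In low 2 and low 3 the ribosomal RNA-like gene Gm42418 reached 40940 and 8017 CPM (library sizes scaled by TMM), against 744.7 to 1616 CPM in the others. In bulk RNA, fewer cells making a transcript and less of it per cell cannot be told apart.

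All clones expressed the common forms strongly and the tissue-restricted forms weakly. Levels between genes are given as CPM per kb of exon. The median over the 10 libraries was 584.5 for Cox4i1, 488.0 for Cox6a1, 295.3 for Cox6b1, 165.4 for Cox7a2 and 73.7 for Cox7a2l. These 5 genes stood between the 95.5th and the 99.7th percentile of 16878 protein-coding genes by mean level. Cox4i1 exceeded Cox6a1 in 7 of 10 libraries, so the order of this pair differed between clones on this scale. Per kb of the longest annotated transcript, a scale added after seeing the data, it exceeded Cox6a1 in all 10, with medians of 1184 and 552.5. On the first scale Cox6b1 exceeded Cox7a2, and Cox7a2 exceeded Cox7a2l, in all 10. A wide gap followed. Cox7a1 had a median of 2.64 CPM per kb and Cox6a2 one of 1.66, at the 53.6th and 43.5th percentiles of mean level. Ndufa4l2 (0.219), Cox4i2 (0.101) and Cox6b2 (0.0457) were lower still. Cox6b2 was above Cox4i2 in 4 libraries and tied with it in 2, so their order was not fixed.

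**Figure D1:**
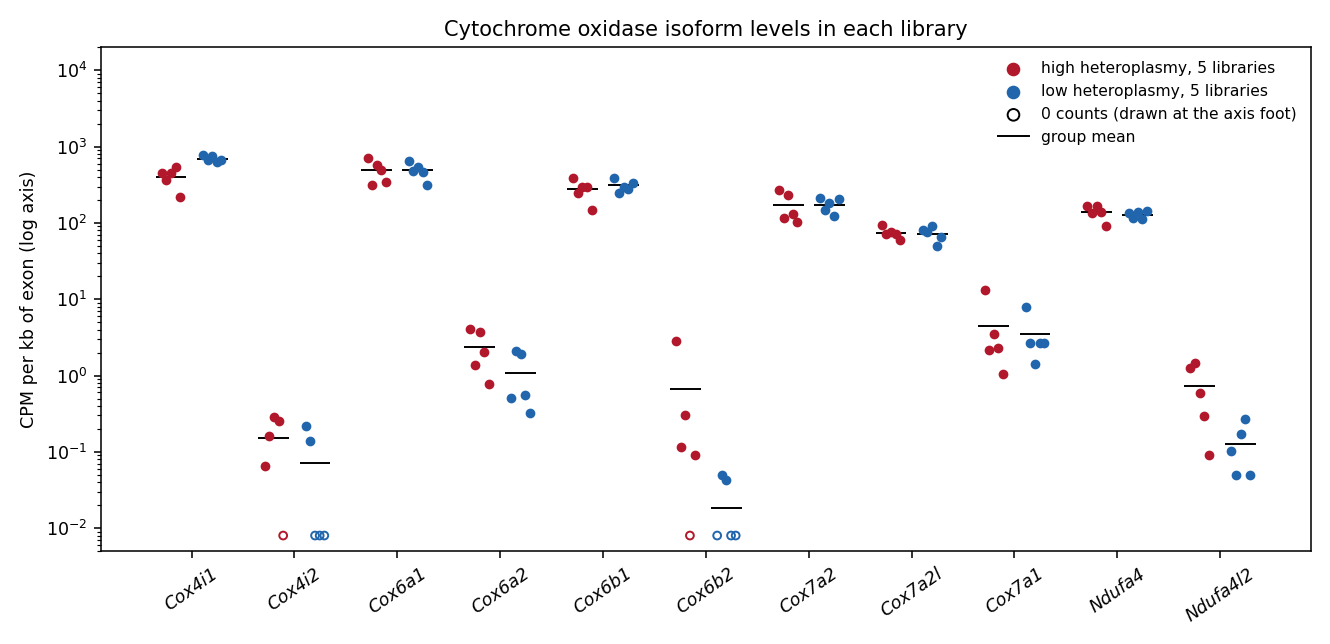
Level of each isoform, and of Ndufa4, in every library, as CPM per kb of exon on a log axis, with high-heteroplasmy clones left of low-heteroplasmy clones, bars for group means and open circles at the axis foot for 0 counts. The common forms sit near or above 50 in every library, and no library of Cox7a1, Cox6a2, Ndufa4l2, Cox4i2 or Cox6b2 exceeds 13.3.

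None of the 7 isoforms that passed the filter was called, beside 4.86% of all tested genes. Of the 7, 1 (Cox4i1) had an unadjusted edgeR p under 0.05, beside 21.6% of all tested genes. DESeq2 and limma-voom each called Cox4i1 and no other isoform, beside 11.4% and 5.30% of the genes they tested. Cox4i2, Cox6b2 and Ndufa4l2 did not pass the filter. The median log2 fold change of the 7 was -0.0042, against 0.022 over all tested genes.

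Cox4i1 encodes the common form of subunit 4, which binds adenine nucleotides (Ensembl ENSMUSG00000031818, GRCm38 chr8:120668222-120674207, plus strand). It had 689.4, 561.8, 689.1, 827.2 and 335.8 CPM in high clones 1 to 5, against 1186, 1024, 1164, 984.8 and 1046 CPM in low clones 1 to 5. Every high clone lay below every low clone, as for 4.17% of all tested genes. In either direction the groups did not overlap for 7.17%. The means were 620.7 ± 184.9 CPM in high and 1081 ± 89.1 CPM in low clones (SD, n = 5 each). High over low, this was a log2 fold change of -0.80 (SE 0.21), with an edgeR adjusted p of 0.0545, just above the threshold. Without high 4 the adjusted p was 0.0346 and without high 5 it was 0.0455, and in the other 8 runs that left out 1 library it was not under 0.05. By DESeq2 the adjusted p was 0.00543 and by limma-voom 0.0465. Without low 2 and low 3 together it was 0.190, in an edgeR fit that called 0.414% of all tested genes. A fit with the replicate number as a second term called 4.45% of genes, and no isoform.

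Genes across chromosome 8 were lower in the same clones. Chromosome 8 had 700 tested genes with a median log2 fold change of -0.59, and 27.6% of them fell, beside 2.87% of all tested genes. None of the 700 rose. The ranges of high and low clones were apart in the same direction as for Cox4i1 in 34.0% of them. A log2 fold change below that of Cox4i1 was found for 25.6% of chromosome 8 genes, against 7.88% of all tested genes. The median log2 deviation of chromosome 8 genes from their 10-library median was -0.34, -0.18, -0.37, -0.15 and -0.50 in high 1 to 5, against 0.28, 0.42, 0.26, 0.19 and 0.17 in low 1 to 5. Cox4i1 deviated by -0.39, -0.68, -0.39, -0.13 and -1.43 in the high clones, and by 0.39, 0.18, 0.37, 0.13 and 0.21 in the low ones. In high 2 and high 5 it lay well below its chromosome. With the median deviation of each chromosome taken out of each library, the log2 fold change of Cox4i1 was -0.25 (edgeR adjusted p = 0.524), and 1.27% of all tested genes were called. Its neighbour Emc8, on the opposite strand and sharing 154 exonic bases with it, where reads can be told apart only if strand was used in counting, fell, to 61.5 ± 11.8 CPM in high against 91.7 ± 5.68 CPM in low clones (SD, n = 5 each). The log2 fold change of Emc8 was -0.58 (SE 0.15, edgeR adjusted p = 0.0457), and -0.02 with the chromosome deviation taken out. The part of the chromosome shift in the difference of Cox4i1 beyond this adjustment was not tested.

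**Figure D2:**
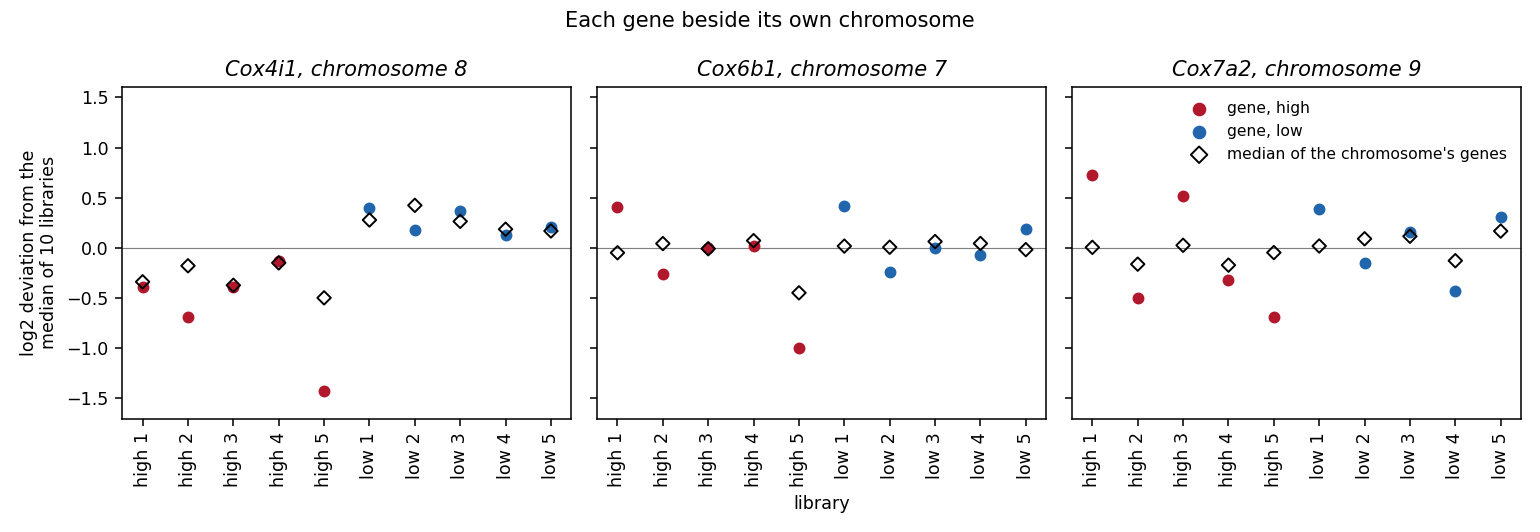
Log2 deviation from the 10-library median of Cox4i1, Cox6b1 and Cox7a2 (filled, high left of low) and the median deviation of the genes on their chromosomes (open diamonds), by library. Chromosome 8 lies below 0 in all high clones and above 0 in all low clones, and Cox4i1 in high 5 lies at -1.43, below the -0.50 of its chromosome.

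Cox4i2, which replaces Cox4i1 in lung and under low oxygen, was close to absent. It had 1, 3, 6, 5 and 0 counts in high 1 to 5, against 3, 2, 0, 0 and 0 counts in low 1 to 5. The sums were 15 counts in high and 5 counts in low clones, and the groups overlapped. Per length it made up at most 0.0648% of the pair, in high 3. The mean share was 0.0343% in high and 0.00984% in low clones per kb of all exons, and 0.0182% in high and 0.00522% in low clones by longest transcript. In high 5, 0 counts beside 10092 counts of Cox4i1 allow a count share of up to 0.0297%, which like all limits of this kind covers counting error only. No ratio was tested at this depth.

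Cox6a1 and Cox6a2 encode the liver and the heart form of subunit 6a. Cox6a1 averaged 342.9 ± 118.8 CPM in high and 343.9 ± 86.0 CPM in low clones (SD, n = 5 each), with a range of 218.1 to 505.7 CPM over all libraries. Its log2 fold change was -0.0042 (SE 0.26, edgeR adjusted p = 0.994). Cox6a2, at chr7:128205435-128206387 on the minus strand, had 54, 22, 67, 35 and 16 counts in high 1 to 5, against 6, 26, 28, 9 and 4 counts in low 1 to 5. In CPM this was 2.74, 0.946, 2.54, 1.39 and 0.532 in high clones and 0.342, 1.41, 1.31, 0.377 and 0.218 in low clones. High 1 and high 3 were above every low clone, and the other high clones lay within the range of the low ones. The log2 fold change was 1.14 (SE 0.61, 95% interval -0.06 to 2.34, edgeR adjusted p = 0.308). Without low 2 and low 3, the libraries rich in Gm42418, it was 2.37 (SE 0.64, edgeR adjusted p = 0.134). These were also the low clones with the most Cox6a2, so leaving them out by itself put every high clone above every low clone. The share of all genes parted in that way was not counted. Cox6a2 reached 10 counts in every high clone, and among low clones only in low 2 and low 3. Its passing of the filter thus rested mainly on the high clones, the group where its mean was higher.

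Per length, Cox6a2 made up 0.457 ± 0.157% of the 6a pair in high and 0.217 ± 0.163% in low clones (SD, n = 5 each). The log2 ratio of Cox6a2 to Cox6a1 per kb averaged -7.82 in high and -9.11 in low clones, a difference of 1.29, and of 2.05 without low 2 and low 3. The two-sided exact permutation test gave p = 0.0635, or 0.254 adjusted over the 4 ratios tested. The smallest p that all arrangements of the 10 libraries allow is 0.00794. This ratio was tested because Cox6a2 passed the filter, which rested mainly on the high clones, so the p-value is not support for a difference. Itgad, an integrin gene on the opposite strand that shares 70 exonic bases with Cox6a2, had 371 counts in all, and all were in high clones. It was at 12.1 CPM in high 2 and 3.37 CPM in high 3, and at 0 in high 1, where Cox6a2 was highest. Of the skeletal muscle markers, Myog was at 0 in every library, Ckm, Acta1, Myh3 and Tnnt3 stayed at or under 0.544 CPM, and Myod1 was not analysed here. The muscle protein gene Des reached 4.03 to 24.5 CPM in high and 2.06 to 5.01 CPM in low clones, with its highest value in high 1. The summed level of the 5 detected markers was 4.16 to 24.7 CPM in high and 2.53 to 5.58 CPM in low clones, and its part in the level of Cox6a2 was not tested.

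Cox6b1 and Cox6b2 encode the form of subunit 6b found in most tissues and the form found in testis. Cox6b1 had 278.0, 174.3, 208.8, 211.3 and 104.6 CPM in high 1 to 5, against 278.7, 176.8, 209.3, 198.6 and 238.6 CPM in low 1 to 5. High 5 lay far below the low clones and high 2 just below them, and the other high clones lay within their range. Its log2 fold change was -0.17 (SE 0.23, edgeR adjusted p = 0.729). In high 5 Cox6b1 deviated by -0.999 on the log2 scale, and the median gene of its chromosome, 7, by -0.45 in that library, against -0.05 to 0.07 in the others.

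Cox6b2, at chr7:4751792-4753094 on the minus strand, had 62, 3, 9, 0 and 3 counts in high 1 to 5, against 0, 1, 1, 0 and 0 counts in low 1 to 5. A single clone, high 1, held 62 of the 77 counts of the high group, and the low group held 2 counts. Cox6b2 made up 0.719% of its pair per length in high 1 and at most 0.104% in any other library. Its mean share was 0.186% in high and 0.00679% in low clones, and 0.307% in high and 0.0112% in low clones by longest transcript. When no filter was applied, its fitted log2 fold change was 4.81 (edgeR adjusted p = 0.126), a value that rests on counts near 0 in the low clones. The germ cell marker Ddx4 was also highest in high 1, at 0.457 CPM, and at most 0.228 CPM elsewhere. It had at most 9 counts in any library. The sperm marker Prm1 had a single count in all libraries. Ldhc had 0.102 CPM in high 1, from 2 counts, and was at 0 elsewhere. Dazl and Tnp1 were not analysed here. Counts this low give no clear level. The summed germ cell markers ranged from 0 to 0.559 CPM in high and from 0.0418 to 0.228 CPM in low clones, and their part in the level of Cox6b2 was not tested.

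**Figure D3:**
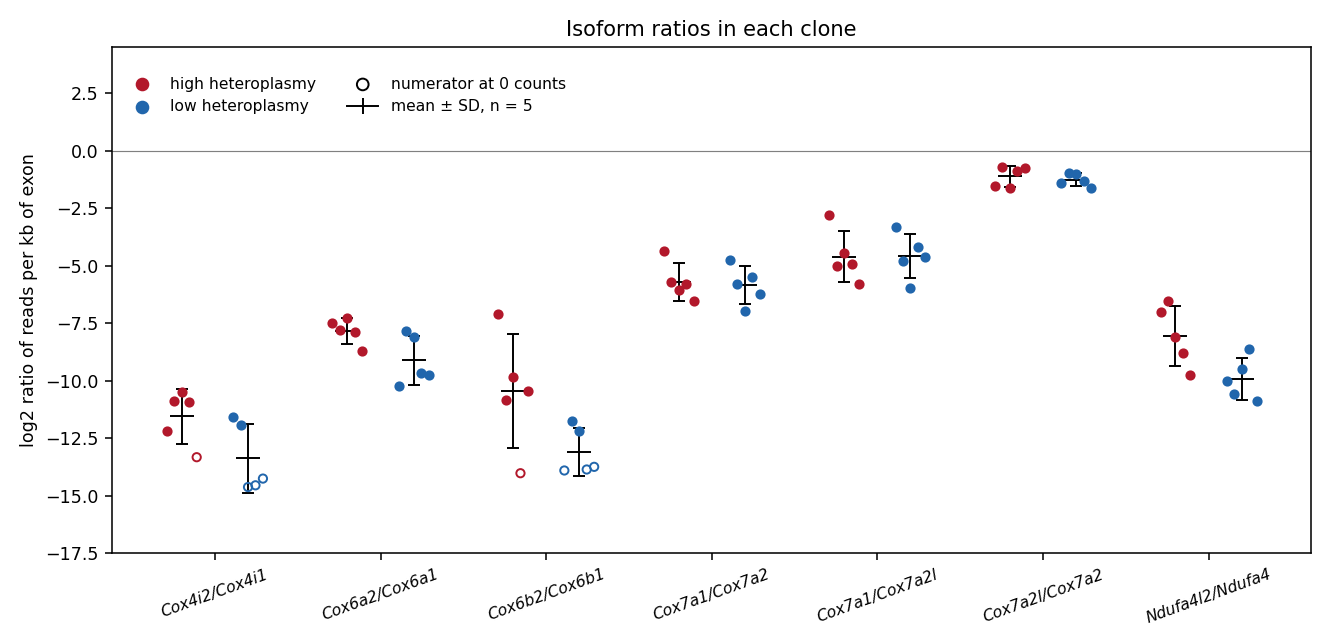
Log2 ratio of each rarer isoform to its partner, as reads per kb of exon with 0.5 added to each count, by clone, high left of low, with mean and SD (n = 5) and open circles where the rarer isoform had 0 counts. High and low clones overlap for every pair, and Cox6b2/Cox6b1 in high 1, at -7.10, stands above all other libraries of that pair.

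The 7a family has a common form, Cox7a2, a heart and muscle form, Cox7a1, and the supercomplex factor Cox7a2l. Cox7a2 had 257.1, 109.5, 222.2, 124.3 and 96.0 CPM in high 1 to 5, against 202.9, 139.5, 172.8, 115.5 and 191.7 CPM in low 1 to 5. The high clones spanned the wider range on both sides. Cox7a2 had a log2 fold change of -0.02 (SE 0.29, edgeR adjusted p = 0.977). Cox7a2l ranged from 89.2 to 137.4 CPM in high and from 73.3 to 135.2 CPM in low clones, with a log2 fold change of 0.04 (SE 0.18, 95% interval -0.31 to 0.39, edgeR adjusted p = 0.938). Gm6969 shares 13.8% of the 50-base stretches of Cox7a2l and averaged 11.1 counts, against at least 1751 counts for Cox7a2l.

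Cox7a1, at chr7:30184144-30186078 on the plus strand, had 140, 27, 49, 31 and 17 counts in high 1 to 5, against 75, 26, 16, 34 and 26 counts in low 1 to 5. A single clone of each group stood out, high 1 with 7.11 CPM and low 1 with 4.27 CPM, and the other libraries lay between 0.566 and 1.85 CPM. Over all libraries the log2 fold change was 0.36 (SE 0.68, edgeR adjusted p = 0.819), and without high 1 it was -0.62, with an adjusted p of 0.521. Within the Cox7a1 and Cox7a2 pair, Cox7a1 made up 2.14 ± 1.44% per length in high and 1.90 ± 1.07% in low clones (SD, n = 5 each). The lowest share was 0.761% in low 3 and the highest 4.65% in high 1. Cox7a1 is also known from brown fat, and of the adipocyte markers Fabp4, a fatty acid binding protein, and Pparg, a regulator of fat cell formation, rose. Adipoq, Plin1, Ucp1 and Cidea had at most 3 counts in any library. All 6 markers summed to 40.0 to 148.4 CPM in high and 11.96 to 24.6 CPM in low clones. The cardiac markers summed to 0.0860 to 1.83 CPM in high and 0.327 to 3.52 CPM in low clones, with Myh6 and Nppa at 1 count or fewer. The part of these markers in the level of Cox7a1 was not tested.

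The balance between Cox7a2l and Cox7a2 was steadier. Per length, Cox7a2l made up 32.1 ± 6.64% of their sum in high and 29.5 ± 3.99% in low clones (SD, n = 5 each), from 24.4% in low 5 to 38.3% in high 2. The other tested ratios were compared with a two-sided exact permutation test. The log2 difference, high minus low, was 0.16 for Cox7a2l/Cox7a2 (exact permutation p = 0.484, adjusted 0.968), 0.15 for Cox7a1/Cox7a2 (p = 0.786, adjusted 0.976) and -0.01 for Cox7a1/Cox7a2l (p = 0.976, adjusted 0.976). None of these differences exceeded the spread between clones.

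Ndufa4l2, at chr10:127514967-127517154 on the plus strand, is a hypoxia-induced gene of the Ndufa4 family. It had 27, 37, 17, 8 and 3 counts in high 1 to 5, against 2, 1, 4, 7 and 1 counts in low 1 to 5. High 1 to 4 were above every low clone in counts and in CPM, and high 5 was not. The sums were 92 counts in high and 15 counts in low clones. With no filter on low counts its log2 fold change was 2.42 (SE 0.73, edgeR adjusted p = 0.101), beside 2.12% of 23398 genes called in that fit. The median log2 deviation of chromosome 10 genes averaged 0.17 in high and -0.11 in low clones. Its part in the difference of Ndufa4l2 was not tested. Ndufa4 averaged 193.2 ± 42.7 CPM in high and 177.6 ± 18.1 CPM in low clones (SD, n = 5 each), with a log2 fold change of 0.12 (SE 0.17, edgeR adjusted p = 0.747). With the median deviation of each chromosome taken out, its direction turned, to -0.17 (edgeR adjusted p = 0.645). Per length, Ndufa4l2 made up 0.493 ± 0.400% of the pair in high and 0.103 ± 0.0812% in low clones, from 0.0351% in low 5 to 1.06% in high 2. Shmt2, on the opposite strand with 32 shared exonic bases, averaged 13124 counts and was lowest in high 1, at 281.3 CPM. Its log2 fold change was 0.21 (edgeR adjusted p = 0.704).

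The pericyte genes Rgs5 and Abcc9 were at 0 in every library. These cells are among those in which Ndufa4l2 and Cox4i2 are known to be made. The other pericyte and smooth muscle markers analysed, which fibroblasts can also express, summed to 87.1 to 274.2 CPM in high and 100.996 to 202.0 CPM in low clones. None of the 5 that passed the filter was called, beside 4.86% of all tested genes, a share from which so few genes cannot be told apart.

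The SD between libraries was large for the rare forms. These had as few as 4 counts (Cox6a2) and 16 counts (Cox7a1) in a library, and counting error adds to the SD at such levels. Its part was not separated from differences between clones, and the medians below are over genes of all levels. Within high clones the SD of log2 CPM was 1.28 for Cox7a1 and 0.92 for Cox6a2, and within low clones it was 0.86 and 1.05, against medians of 0.40 in high and 0.31 in low clones over all tested genes. Cox4i1 had an SD of 0.50 in high clones and 0.12 in low clones, and 5.28% of tested genes varied less among the low clones. For Cox6a1, Cox6b1 and Cox7a2 the SD was also larger in high clones (0.51, 0.52 and 0.64) than in low clones (0.39, 0.25 and 0.34), and for Cox7a2l it was smaller (0.22 in high, 0.34 in low). These SDs were not tested against each other.

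No other tested subunit gene of complex IV was called. Of the 10 other nuclear subunits listed, 7 passed the filter, none rose and none fell, beside 4.86% of all tested genes called. So few genes cannot be told apart from that share. Their median log2 fold change was -0.06, against 0.022 over all tested genes. Cox5a, which sits on the matrix side of the complex, had the smallest p, with 99.2 ± 25.9 CPM in high and 144.0 ± 38.0 CPM in low clones (SD, n = 5 each). Its log2 fold change was -0.54 (SE 0.23, edgeR adjusted p = 0.209). Cox5b (-0.10), Cox6c (0.30), Cox7b (-0.26), Cox7c (-0.06) and Cox8a (0.10) had log2 fold changes within about 1 SE of 0. Cox7b2, a testis form, had no count in any library, and Cox8b and Cox8c were not analysed here. The catalytic subunit gene mt-Co1, from mitochondrial DNA, had a log2 fold change of 0.20 (edgeR adjusted p = 0.813), and mt-Co2 and mt-Co3 did not pass the filter. The read counter is not stated in the sources used, so this is not read as low expression of these genes.

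**Figure D4:**
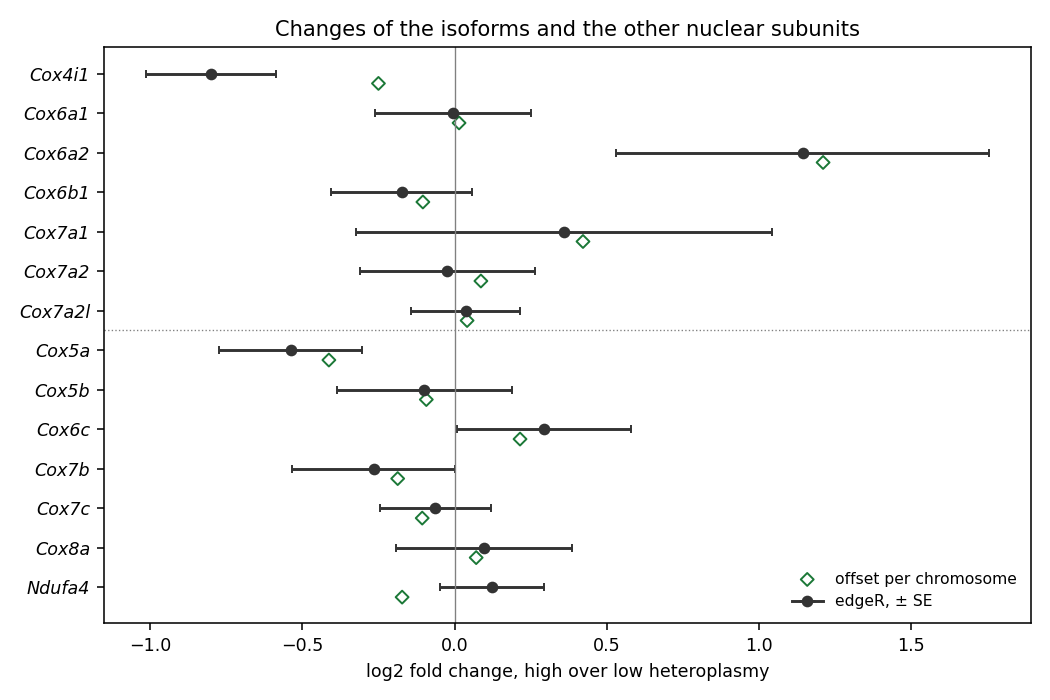
Log2 fold change, high over low heteroplasmy, of the 7 tested isoforms (above the dotted line) and the other tested nuclear subunits (below it), from edgeR with SE bars, and with the median deviation of each chromosome taken out (open diamonds). Cox4i1 lies at -0.80 and moves to -0.25 with that adjustment, and Cox6a2 lies at 1.14 and moves to 1.21.

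The share of subunit counts that came from Cox4i1, not scaled by length, was lower in high clones. Of the counts on 12 common nuclear subunits, Cox4i1 held 18.9, 27.3, 21.5, 28.2 and 19.5% in high 1 to 5, against 31.1, 34.5, 32.8, 35.4 and 35.9% in low 1 to 5. The means were 23.1 ± 4.39% in high and 33.9 ± 1.99% in low clones (SD, n = 5 each). The ranges did not overlap. Taken singly, 7.17% of all tested genes did not overlap in either direction. Of chromosome 8 genes, 34.0% had every high clone below every low clone. This share carries the same Cox4i1 counts as the comparison above and is a description. Over the same 12 genes the median log2 deviation was 0.37, -0.51, 0.11, 0.02 and -0.61 in high 1 to 5, against 0.39, -0.06, 0.15, -0.17 and 0.06 in low 1 to 5. In high 2 and in high 5, 0 of the 12 genes were above their 10-library median. Of the 12, 4 have under 1 kb of exon. The median deviation of 197 genes that short, leaving out genes with respiratory-chain names, was -0.33 in high 2, -0.53 in high 5, 0.31 in high 1 and 0.22 in low 1. These libraries stood on the same side of 0 for both groups of genes. The part of transcript length in the subunit levels was not tested.

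**Figure D5:**
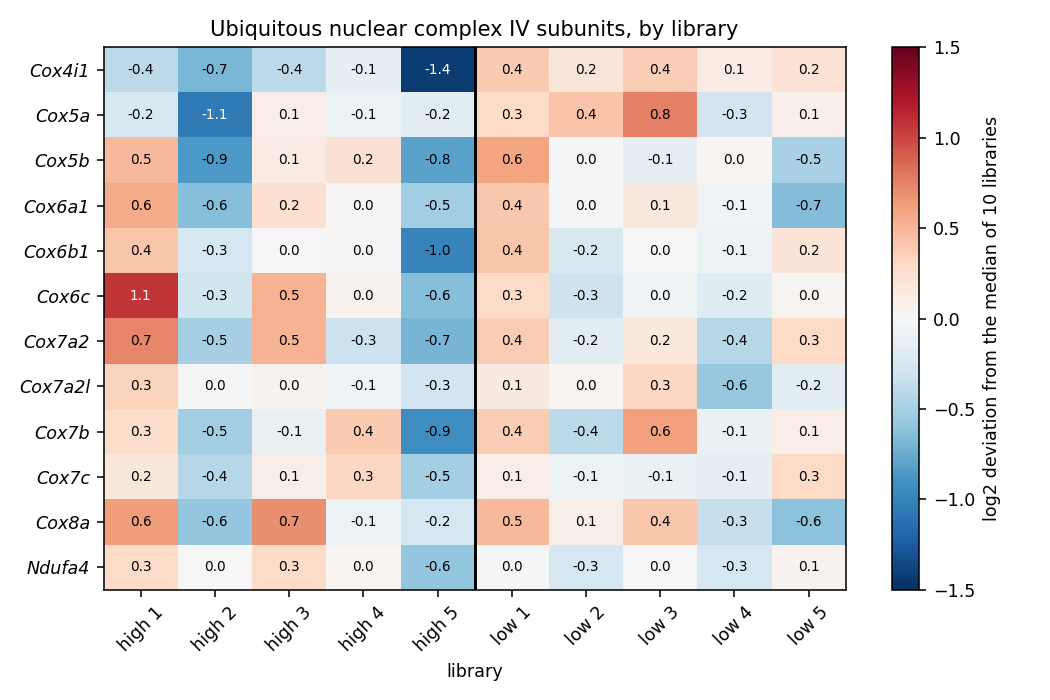
Log2 deviation from the 10-library median of 12 common nuclear complex IV subunits (rows) in each library (columns), with high clones left of the black line and low clones right of it. Cox4i1 is negative in all high clones and positive in all low clones, and no subunit is above 0 in high 2 and high 5.

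The most similar genes were found by Pearson's r of log2 CPM over the 10 libraries, which share depth and scaling. For Cox4i1, Cog4 (r = 0.971) and Sin3b (0.968), both on chromosome 8, were the second and the third, and the first, on chromosome 1, is not reported here. Of its 50 most similar genes, 64.0% lay on chromosome 8, which holds 5.40% of tested genes. For Cox6b1 they were Lin37 (0.981), Psenen (0.967) and Eif3k (0.966), all on its own chromosome 7, as were 34.0% of its 50 most similar genes against 7.36% of tested genes. For Cox7a2 they were Ubl5 (0.983), Rnf7 (0.976) and Anp32a (0.973), all on its chromosome 9, which held 14 of its 50, beside 5.71% of tested genes. Of the same 50, 10 had respiratory-chain names, which 0.779% of tested genes have, and this number was 4 for Cox6a1 and for Cox6b1, 1 for Cox4i1 and for Cox6a2, and 0 for Cox7a1 and Cox7a2l.

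Cox6a1, Cox6a2, Cox7a1 and Cox7a2l were less tied to their own chromosomes, with 3, 6, 6 and 3 of their 50 most similar genes there. The top 3 were Gm4459, Zfp707 and Arl6ip6 for Cox6a1 (r from 0.953 to 0.959), and Vamp8, Dexi and Gtpbp8 for Cox6a2 (0.898 to 0.943). They were Ppp4r1l-ps, Med31 and Gtf3c2 for Cox7a1 (0.949 to 0.969), and Tspan3, Ap4s1 and Col4a5 for Cox7a2l (0.914 to 0.963).

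Among genes that assemble complex IV or deliver its copper and heme, 27 were tested and none was called, beside 4.86% of all tested genes. Their median log2 fold change was 0.13, against 0.022 over all tested genes. The smallest p belonged to Higd1a, a hypoxia-induced factor that binds the complex, with a log2 fold change of -0.77 (edgeR adjusted p = 0.180). Cox16 (0.70), Apopt1 (0.39) and Cox19 (0.23) followed.

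Of 20 tested regulators tied to isoform choice, 1 fell and none rose, a share near the 4.86% called over all tested genes. Egln1, the oxygen-sensing prolyl hydroxylase that marks hypoxia-inducible factor for decay, had 75.4, 56.7, 73.9, 98.3 and 62.2 CPM in high 1 to 5, against 284.8, 136.2, 237.6, 117.2 and 125.4 CPM in low 1 to 5. Every high clone lay below every low clone, as for 4.17% of all tested genes and 34.0% of those on chromosome 8. The log2 fold change was -1.30 (SE 0.27, edgeR adjusted p = 0.0263). Egln1 also lies on chromosome 8, and with the chromosome deviation taken out its log2 fold change was -0.73 (adjusted p = 0.180). The call was lost without high 2 (adjusted p = 0.0551), high 3 (0.0585), high 5 (0.0536), low 1 (0.0531) or low 3 (0.0597), and without low 2 and low 3 together (0.102). Hif1a had a log2 fold change of 0.22 and Epas1 one of -0.86, and neither was called.

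Of 12 genes known to be induced by low oxygen, 1 fell and none rose, beside 2.87% of all tested genes that fell. Of the 12, 9 had a log2 fold change below 0, with a median of -0.48, against 6189 of all 12964 tested genes and a median of 0.022. Ankrd37 fell to 3.55 ± 1.79 CPM in high against 21.6 ± 14.6 CPM in low clones (SD, n = 5 each). Its log2 fold change was -2.61 (SE 0.51, edgeR adjusted p = 0.0224). Ankrd37 is on chromosome 8 as well, and the log2 fold change was -2.02 (adjusted p = 0.0846) with the chromosome deviation taken out. Without high 3 its adjusted p was 0.0501, and Ldha, lactate dehydrogenase A, was called there instead (0.0459). Without low 2 and low 3 together the adjusted p of Ankrd37 was 0.0757. On all libraries Ldha had a log2 fold change of -0.79 (adjusted p = 0.108) and the vasodilator peptide gene Adm one of -3.06 (adjusted p = 0.0672). Ndufa4l2, itself hypoxia-induced, had a higher mean in high clones (0.805 CPM) than in low clones (0.141 CPM), opposite in direction to these genes, with overlapping groups. Cox4i2, also hypoxia-induced, had 15 counts in high and 5 in low clones, too few to give a direction. Neither was called in the fit without a filter (adjusted p of 0.101 and 0.566 by edgeR).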

How the data were processed

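Poly(A) RNA was prepared with a directional kit and read as 50 bp pairs, per the labels' protocols. The deposited table holds raw counts per Ensembl gene that the authors made, with 1 column per library. STAR 2.7.8a, DESeq2 1.36.0 and R 4.2.1 are listed in the submitters' processing notes, as is the build GRCm38. The sources used here do not give the read counter, its strand setting or the annotation. Overlapping genes on opposite strands are therefore named beside the results. Symbols came from GENCODE M21, which left 195 identifiers unnamed. The deposited normalized table was not used.

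Counts were filtered with filterByExpr by group, scaled by TMM and tested with edgeR 4.0.16 in R 4.3.3 (robust quasi-likelihood F-test, group as the only term, two-sided, Benjamini-Hochberg over all tested genes, threshold 0.05), after the code was tested on simulated data. SE is the log2 fold change divided by the root of F, and intervals are 1.96 SE on each side. Alternatives used DESeq2 1.42.0, limma-voom (limma 3.58.1), other scalings and filters, an offset per chromosome from genes with mean log2 CPM above 3, and libraries left out. Isoform ratios used log2 counts with 0.5 added and an exact permutation test that runs through every split of the libraries into 5 and 5, adjusted over 4 pairs in which both genes passed the filter. Levels per kb use the union of exons. Coding sequences are the longest of the annotated principal transcripts, a rule set after other choices (the longest frame of any transcript, or the first-listed transcript) gave an unusual frame for some genes.

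Named genes are the 10 isoforms, Ndufa4, the other nuclear subunits, list members that passed the test or, where none passed, up to 4 with the smallest p, the 3 genes most similar to each tested isoform (1 of those for Cox4i1 is not reported here), and genes that overlap an isoform or are discussed beside one, the last chosen after their values were seen. Hif1a, Epas1, Ldha and Adm, and the marker genes given singly, were also picked from the lists after values were seen. The isoforms and gene lists were chosen with earlier results of these data known. Libraries held 17318372 to 28208576 counts, and SEs also carry the spread between the 5 clones of each group. Limits for 0 counts (3 counts) cover counting error only.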

Additional observations from a re-analysis of the deposited data

Results flagged for a closer look

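In groups of 5 libraries, a library was singled out when its gap to the nearest other library as a share of the range of the group exceeded Dixon's 95% critical value, which chance passes in about 1 of 20 groups. Of 26 groups tested, 3 held such a library. Cox6b2, the testis form, was at 3.15 CPM in high 1, with a gap of 0.892 of the range of the high clones. Cox7a1, the muscle form, was at 7.11 CPM in high 1, with a gap of 0.803 of the range of the high clones. Cox7a1 was also at 4.27 CPM in low 1, with a gap of 0.809 of the range of the low clones.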

How the results depend on the processing

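The number of called isoforms was 0, and it was 1 with DESeq2 and with limma-voom and 0 to 1 when each library was left out in turn, the gene being Cox4i1 each time. The log2 fold change of Cox4i1 stayed negative in all 19 alternatives, from -0.93 to -0.25, with adjusted p from 0.00543 to 0.524. Values near 0 changed sign, and so did that of Cox7a1, 0.36 (SE 0.68) on all libraries, when high 1 was left out. Cox6a1 was 0.0015 with RLE scaling and with DESeq2, 0.0209 with upper-quartile scaling, 0.0065 with no filter, 0.0148 with an offset per chromosome and 0.0537 without low 2 and low 3, and -0.18 to 0.12 with 1 library left out. Ndufa4, at 0.12, was -0.17 with an offset per chromosome. Cox7a2 was 0.0016 with upper-quartile scaling and 0.0865 with an offset per chromosome, and -0.25 to 0.11 with 1 library left out. With 1 library left out, Cox7a1 was -0.62 to 0.92 and Cox7a2l -0.0743 to 0.13. The log2 ratio difference of Cox7a1/Cox7a2 was -0.21 without low 2 and low 3 and -0.19 to 0.43 with 1 library left out, and that of Cox7a1/Cox7a2l 0.0858 with the chromosome offset and -0.46 to 0.30 with 1 left out. Called regulators, 1 on all libraries, were 3 with DESeq2, 0 with the offset and 0 to 2 with 1 library left out. Called hypoxia-induced genes, 1 on all libraries, were 3 with DESeq2 and 0 with the offset, and the causes of these changes were not tested. Over all genes, 630 were called by edgeR, 1475 by DESeq2, 164 with the offset, 496 with no filter and 56 without low 2 and low 3.

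Same-numbered high and low libraries had correlations of deviations of 0.46, -0.05, 0.03, 0.07 and 0.16. Of 10 libraries, 4 correlated best with their own number. The sample titles give the numbers as biological replicates and name no pairs, so the main fit has no pairing. A factor shared by same-numbered libraries was not tested and is not excluded by these values. With the replicate number as a block, 577 genes were called, no isoform was called, Cox4i1 was at -0.86 (adjusted p = 0.0568), and the called regulators were 2, Egln1 and Cxxc5. With that block the SE was 0.20 for Cox4i1, 0.15 for Cox6a1 and 0.44 for Cox7a1, against 0.21, 0.26 and 0.68 without it. A sign-flip test of 5 pairs cannot go below 0.0625. Depth limits Cox4i2, Cox6b2 and Ndufa4l2, whose ratios were not tested.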
